A study of Mus musculus with 60 samples.

Results

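Lung tissue of mice given polyethylene terephthalate (PET) nanoplastic was compared with lung tissue of unexposed mice by counting bacterial 16S rRNA gene amplicons. The lung libraries were taken by their title and treatment label, and they are 12 of the 60 libraries of the series. They fall into 6 libraries of unexposed mice, called control 1 to 6 here, and 6 of exposed mice, called PET 1 to 6, numbered in deposit order within each arm. All mice were male. PET nanoparticles were given by gavage at 0.5 mg per day in 0.1 ml, and lung was collected at day 28 in both arms. The labels call the control mice non-exposed, and no source used here gives their own gavage, their strain or their age. The bacterial counts give no check of the tissue label itself. No label ties a lung library to a stool, colon or oral library of the same animal, so every p-value measures the spread between libraries of an arm.

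Lung tissue carries few bacteria, which reach it mainly by small inhalations from the mouth and throat and are cleared by mucus, cilia and macrophages. Amplicon libraries of such tissue therefore hold bacteria of the airway together with DNA of other body sites and of water, dust and reagents, in proportions that can differ from one library to the next. The 16S rRNA gene is present in different copy numbers in different bacteria, so a share below is a share of counts and not of cells. The question of this comparison is whether gavage with PET nanoparticles was accompanied by a different bacterial community in lung.

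Lung libraries held 10543 to 326834 counts. Control libraries averaged 138634 ± 117817 counts (SD, n = 6) and PET libraries 54461 ± 43587.5 (exact two-sided permutation test over all arrangements, p = 0.139). The 3 deepest libraries were control 1, control 2 and PET 1, and the shallowest was PET 6, so the depth of the arms overlapped. Bacterial and archaeal (prokaryote) features made up 66.0% of counts in control 6 and up to 98.5% in control 2. Control 5 and control 6 have later library numbers than the other 10 lung libraries. Control 5 held 47.1% Bacteroidaceae (95% Wilson interval 46.8 to 47.4%), the most of any lung library. Amplicon reads without molecular barcodes are not separate molecules, so intervals and count floors cover counting error only.

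No phylum, order, family, genus or single feature passed the threshold between PET and control lungs. Firmicutes, which include most fibre-fermenting gut anaerobes, took 45.2% ± 14.5 of prokaryote counts in control and 37.7% ± 18.3 in PET lungs (SD, n = 6 in each arm here and below). Bacteroidota, glycan degraders of gut and mouth, took 28.98% ± 18.05 and 14.7% ± 7.47. Proteobacteria, which hold the enteric bacteria and many water and soil bacteria, took 14.1% ± 10.02 and 26.1% ± 15.7. The exact permutation p was 0.331, 0.0693 and 0.134 for these phyla, and the adjusted p was 0.733 for each of them. Actinobacteriota, Verrucomicrobiota and Fusobacteriota, the next phyla by mean share, had adjusted p from 0.733 to 0.743.

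Among families, Lachnospiraceae, gut anaerobes that ferment plant fibre, had the highest mean share over the 12 lung libraries. They ran from 4.40% in control 4 to 16.1% in controls, and from 2.74% to 30.1% in PET lungs. Bacteroidaceae, gut glycan degraders, ran from 2.75% to 47.1% in controls with a median of 7.69%, and from 1.36% to 16.1% with a median of 3.12% in PET lungs. The highest libraries were control 5 and control 6, and the other 4 controls lay within the range of the PET lungs. Ruminococcaceae, a family with many butyrate producers, ran from 2.01% to 22.8% in controls and from 1.72% to 6.77% in PET lungs. Prevotellaceae, fermenters of gut and mouth, ran from 0.427% to 17.01% and from 0.321% to 16.9%, which is nearly the same range in both arms.

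**Figure D1:**
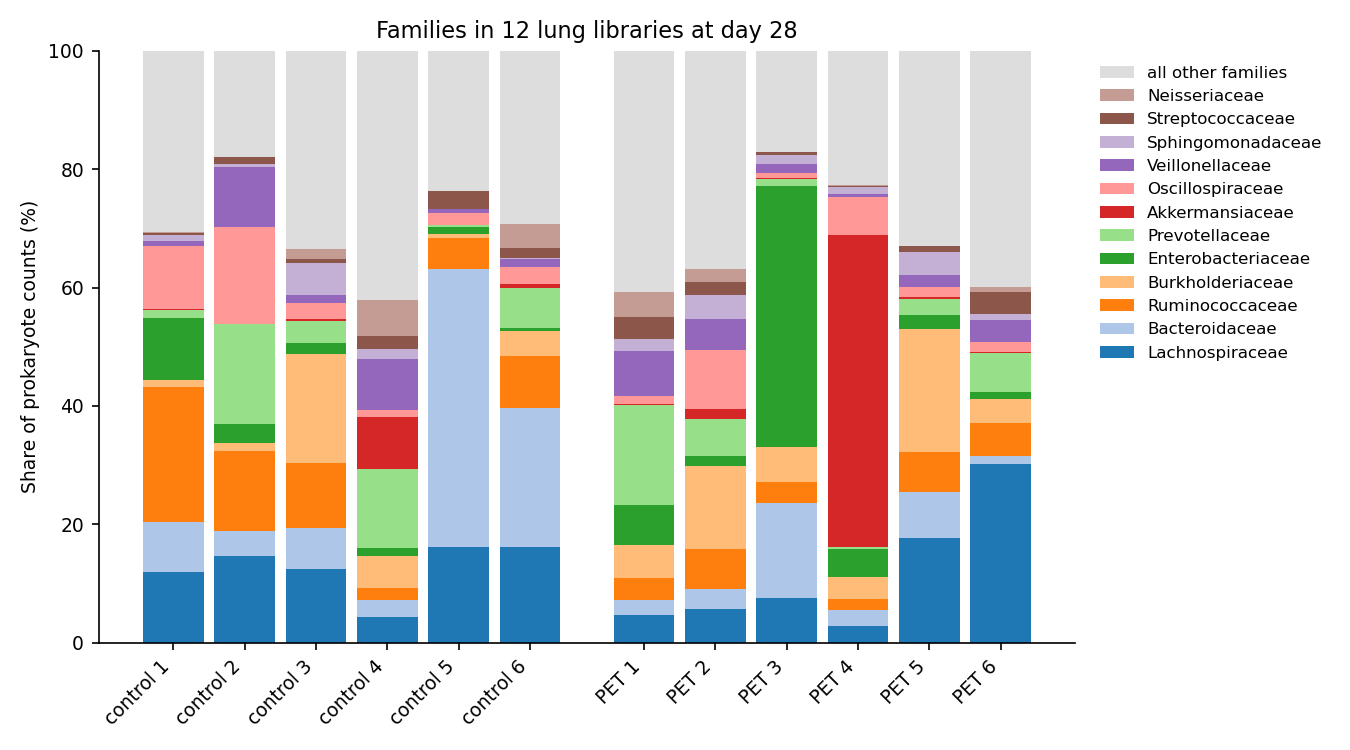
Share of prokaryote counts (%) per lung library for the 12 families with the highest mean share, stacked, with all other families in grey; the left block holds the 6 controls and the right block the 6 PET libraries. A different family leads in different libraries of 1 arm: Bacteroidaceae at 47.1% in control 5, Enterobacteriaceae at 44.04% in PET 3 and Akkermansiaceae at 52.7% in PET 4.

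Few bacterial features were shared between lungs. A feature is 1 sequence unit of the deposited counts. Whether a unit is an exact amplicon sequence or a cluster is not stated in the sources used here. Features are named here by their lowest named rank and lettered by mean share in lung. Of 3607 prokaryote features seen in lung, 2884 (80.0%) were in 1 library and 13 were in all 12. The 2884 held a mean of 21.9% of the counts of a library, and the 13 held 20.2%. The 13 widespread features belong to genera known from different habitats, and no test assigned them to a source. They include Burkholderia-Caballeronia-Paraburkholderia feature A, a water, soil and plant bacterium, with a mean of 6.99% (range 0.747% to 20.8%). Leifsonia feature A and Sphingomonas feature A, further soil and water bacteria, averaged 1.497% and 0.811%. Escherichia-Shigella feature A, an enteric bacterium, averaged 5.66%, with 42.7% in PET 3 (95% Wilson interval 42.3 to 43.1%). Cutibacterium feature A, a skin bacterium, averaged 0.718%. The remaining 8 belong to taxa known from the gut: single features of Blautia, Subdoligranulum, Fusicatenibacter, the [Eubacterium] hallii group and Lachnospiraceae, a pair of Faecalibacterium features, and Helicobacter apodemus feature A. The Helicobacter feature, from a genus of the gut mucus layer, averaged 0.460% in lung and 43.3% in colon tissue of the same study. Lachnospiraceae feature A was also higher in colon (1.61%) than in lung (0.153%). The other 6 had higher mean shares in lung than in colon, stool or mouth, such as Blautia feature A with 1.09% in lung, 0.0545% in colon and 0.00503% in stool. The summed share of all 13 widespread features ran from 5.32% in control 2 to 51.9% in PET 3. None of the 13 passed the threshold between the arms.

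Compared as whole communities, PET and control lungs did not differ beyond the spread between lungs of 1 arm. The share of squared Bray-Curtis distances lying between the arms (R2) was 0.0797 for families and 0.0859 for features (exact over all splits, p = 0.584 and 0.591, adjusted p = 0.591 for both). A Bray-Curtis distance is 0 for equal shares and 1 where nothing is shared. For families, pairs of controls averaged 0.558, pairs of PET lungs 0.615 and pairs of a control and a PET lung 0.575. The nearest library by families belonged to the same arm for 5 of the 12 libraries, and by features for 4 of 12. Without control 4 alone, R2 was 0.135 for families (exact p = 0.123). Without control 4 and PET 1, which are described next, R2 was 0.129 for families and 0.116 for features (exact p = 0.278 and 0.294). Without the later-numbered control 5 and control 6 it was 0.0675 for families and 0.0943 for features (exact p = 0.852 and 0.814).

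The closest pairs of lungs crossed the arms. Control 4 and PET 1 were the closest by families, at 0.215. By features they were at 0.728, and each was the other's nearest library there too. Both libraries held many features seen in no other lung: 49.9% of counts in control 4 and 52.6% in PET 1, against 3.65% to 26.2% in the other 10. In both, the same 6 families led these unshared features in the same order: Prevotellaceae, Veillonellaceae, Fusobacteriaceae, Neisseriaceae, Porphyromonadaceae and Pasteurellaceae, which are mostly mouth and throat bacteria. Prevotellaceae gave 110 such features in control 4 and 148 in PET 1. The 12 families listed as mouth and airway bacteria together took 35.2% of counts in control 4 and 32.4% in PET 1, and 1.04% to 14.1% in the other 10 lungs. Both were also the richest, with 862 and 904 features expected at 10083 counts, against 267 to 566 elsewhere. These libraries are neighbours in deposit order. Their labels give consecutive library and sample numbers and adjacent end codes, as for other neighbours in that order. Whether the pair was handled together was not tested.

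A further close pair was control 3 and PET 5, at 0.233 by families and 0.445 by features, the lowest feature distance of all. The same Burkholderia feature led both, with 17.99% in control 3 and 20.8% in PET 5. It also led PET 2 with 13.7%, and PET 2 had control 3 as its nearest library at both levels. These 3 libraries had 29682, 24635 and 36205 counts in all, of which 81.8%, 80.4% and 80.4% were of prokaryotes. Whether depth had a part in that share was not tested. PET 6 and control 6, the shallowest library of each arm, held 3.80% and 4.11% of the feature.

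**Figure D2:**
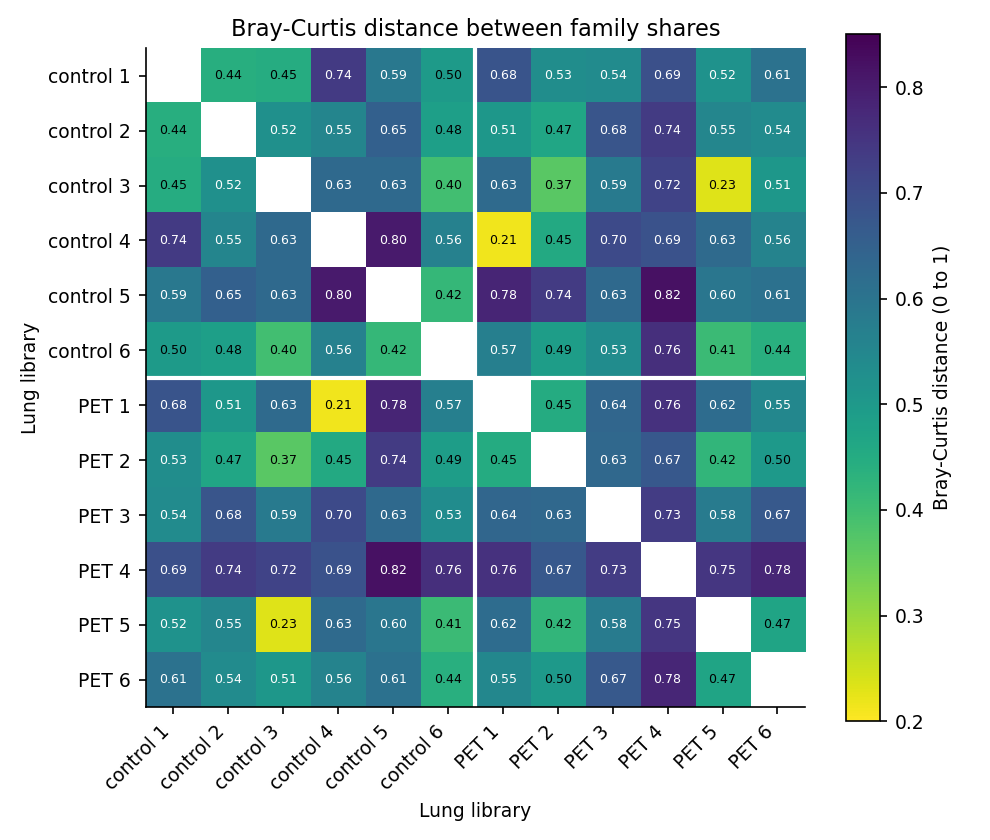
Bray-Curtis distance between the family shares of each pair of lung libraries, from 0 (equal) to 1 (nothing shared), with white lines between the 6 controls and the 6 PET libraries. The closest pairs lie in the blocks that cross the arms, control 4 with PET 1 at 0.215 and control 3 with PET 5 at 0.233.

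Diversity overlapped between the arms. The Shannon index, which grows with the number and evenness of features, was 4.79 ± 0.78 in control and 4.38 ± 1.23 in PET lungs at a common depth (exact permutation p = 0.496, adjusted p = 0.855 over 11 measures). The lowest index was 2.70 in PET 4 and the highest 6.06 in PET 1, so the PET arm held both ends. The difference of PET minus control, -0.41, ran from -0.75 without PET 1 to -0.08 without PET 4. Richness was 480.4 ± 211 and 420.3 ± 241 features (exact permutation p = 0.587, adjusted p = 0.855). The single most abundant feature took 11.65% ± 7.66 of counts in control and 23.6% ± 19.8 in PET lungs (exact permutation p = 0.223, adjusted p = 0.817).

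Most lung counts belonged to features that also had counts in libraries of other sites. Any single count at a site was enough, and the source of shared features was not tested. Features also seen in both the gut (36 stool and colon libraries) and the mouth (12 oral swabs) took 67.8% ± 15.7 of counts in control and 69.3% ± 17.6 in PET lungs (exact permutation p = 0.829). These were 473 features, among them the Burkholderia, Leifsonia and Sphingomonas features described above. Features seen at no other site were far more numerous, 2717 or 75.3%, and took 24.9% ± 14.98 and 21.4% ± 17.5 (exact permutation p = 0.658). Features shared with the mouth but not the gut took 3.81% ± 2.78 and 3.41% ± 0.738 (exact permutation p = 0.855). Features shared with the gut but not the mouth took 3.51% ± 1.45 in control and 5.90% ± 2.60 in PET lungs, with ranges of 1.71% to 5.48% and 3.08% to 9.85% (exact permutation p = 0.0736). Adjusted over the 11 measures of libraries, these 4 tests had p from 0.810 to 0.855. The difference for the gut turned sign, to -3.34 percentage points (exact p = 0.175), when a feature had to be in at least 3 libraries of the other site. It passed an unadjusted threshold without PET 3 (2.96 points, exact p = 0.0325) or without PET 5 (2.81 points, exact p = 0.0498).

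**Figure D3:**
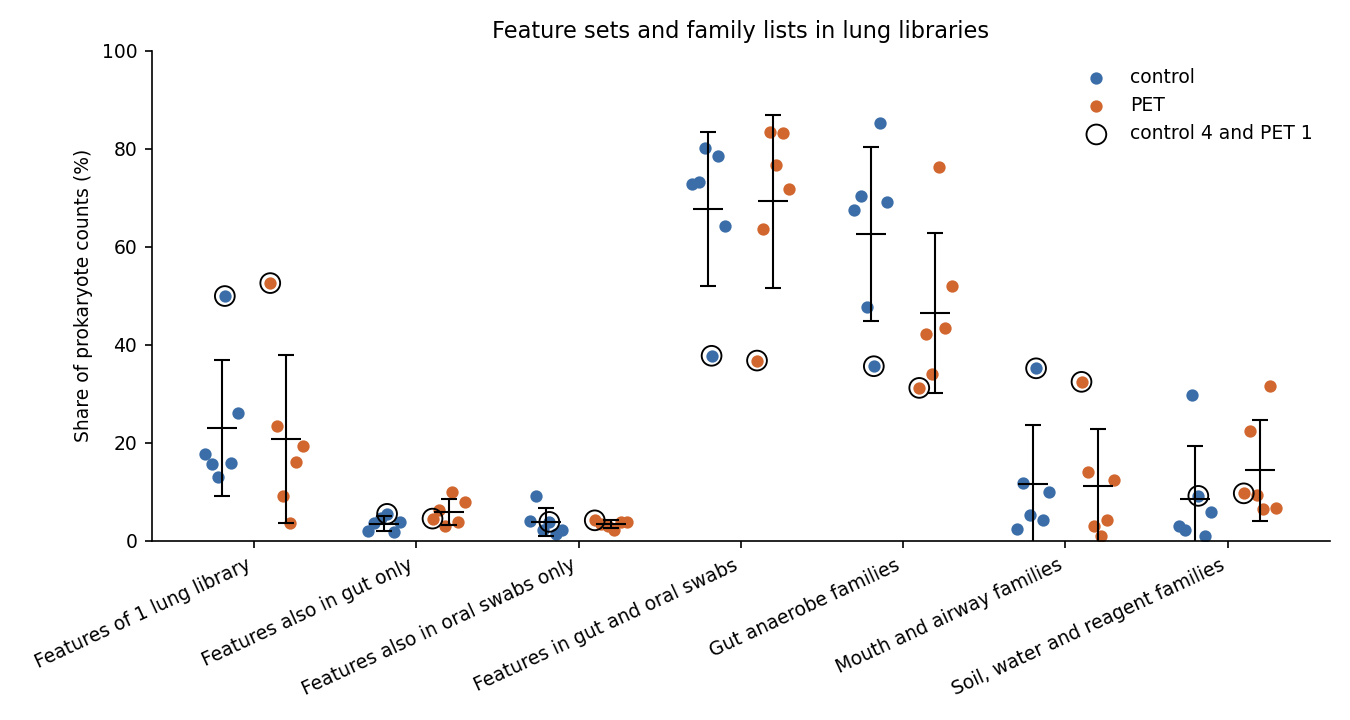
Share of prokaryote counts (%) per lung library held by 4 sets of features and 3 lists of families, for 6 control (blue) and 6 PET (orange) libraries; bars give mean and SD, and rings mark control 4 and PET 1. The ringed libraries, 1 of each arm, have similar values in each panel and stand apart from the rest in some. Their features seen in no other lung took 49.9% and 52.6%, and their mouth and airway families 35.2% and 32.4%. In other panels, such as soil, water and reagent families, they lie among the rest.

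No single site had shares close to those of lung in all the families given here. Muribaculaceae, a leading family of mouse gut, averaged 0.491% over the 12 lung libraries and at most 1.70%, against 12.3% in stool of day 28 and 3.27% in colon. Helicobacteraceae averaged 1.05% in lung and 65.04% in colon tissue. Pasteurellaceae and Streptococcaceae, the leading families of the oral swabs with 53.8% and 30.3%, averaged 1.19% and 1.72% in lung. Burkholderiaceae were higher in lung, at 7.13%, than in colon (1.199%), oral swabs (0.544%) or stool of day 28 (0.0870%). These are descriptions: lung and colon DNA was taken with a kit for blood and tissue and stool and oral DNA with a kit for soil, so kit and site cannot be told apart where lung is set beside stool or oral swabs.

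At each level, edgeR's quasi-likelihood test called 0 taxa different between PET and control lungs at an adjusted p of 0.05: 0 of 62 orders, 0 of the families, 0 of 233 genera and 0 of 454 features tested (0% called at each). Without adjustment, 3 orders (4.84%), 9 families (8.26%), 20 genera (8.58%) and 54 features (11.9%) had p under 0.05. Exact permutation tests gave 3, 4, 13 and 21 at the same unadjusted threshold and also called 0 at every level, as did limma. DESeq2 called 2 orders, 2 families, 4 genera and 3 features. The arms did not overlap in share for 1 order (1.61%), 1 family (0.917%), 2 genera (0.858%) and 0 features (0%), all of them higher in PET lungs. The median fitted log2 change over all families was 0.33, and it was -0.29 under the TMMwsp scaling, so single fold changes are relative to a scale that moves by more than 0.1.

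The family whose arms did not overlap was Pseudomonadaceae, in which every count belonged to Pseudomonas, aerobic bacteria of water, soil and moist surfaces. Its shares in controls 1 to 6 were 0.0526%, 0.00545%, 0%, 0.0861%, 0.00860% and 0.0830%. In PET 1 to 6 they were 0.201%, 1.27%, 0.587%, 0.582%, 0.313% and 0.496%. All 6 PET libraries lay above all 6 controls, at low levels in both arms. The fitted log2 change was 4.03 (SE 1.55, edgeR adjusted p = 0.244) for the family and 3.66 (SE 1.53, adjusted p = 0.353) for the genus. The exact permutation p was 0.00216, the smallest that all arrangements can give, with an adjusted p of 0.236 over families. Any taxon whose arms do not overlap has this exact p, so it restates that choice and is no further support. DESeq2 gave an adjusted p of 0.00837 for the family, and over all alternatives it ran from 0.00837 to 0.927. The order Pseudomonadales did not overlap either, with 0.0239% to 0.338% in controls and 0.399% to 1.37% in PET lungs (edgeR adjusted p = 0.639, exact p = 0.00216).

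In libraries of the other sites Pseudomonas was rare. It was seen in 0 of 6 control and 1 of 6 PET colon libraries, and in 2 and 3 of 6 oral swabs, with means of at most 0.00551% at any other site of day 28. The 6 controls held 803322 prokaryote counts together and the 6 PET lungs 290827. Pseudomonas feature A was in PET 2, PET 3, PET 4 and PET 5 at 0.126% to 0.302%, and in 0 of 6 controls. It was picked for small unadjusted p and passed the filter for tested features through the PET arm only. It was in 0 of 12 colon, 0 of 24 stool and 0 of 12 oral libraries.

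Enterobacteriaceae that could not be named to a genus formed the other group whose arms did not overlap. These are relatives of Escherichia that live in gut, plants and water. Controls held 0.00405%, 0.0735%, 0.0453%, 0.0389%, 0% and 0%, and PET lungs 0.237%, 0.399%, 0.401%, 0.412%, 0.121% and 0.188%. The lowest PET library, PET 5, lay above the highest control, control 2. The fitted log2 change was 3.21 (SE 1.69, edgeR adjusted p = 0.590, exact permutation p = 0.00216). That exact p again follows from arms that do not overlap. Enterobacteriaceae feature A, within this group, had the smallest unadjusted p of all features. It held 0.0577%, 0.395%, 0.193%, 0.174%, 0% and 0.179% of PET 1 to 6 and 0 of 803322 control counts, which allows up to 0.000373%. Its pooled share was at least 372-fold higher in PET lungs at that floor of 3 counts (edgeR adjusted p = 0.137). This fold compares counts pooled over an arm and is no bound between single lungs. The feature passed the filter of 3 libraries through the PET arm only and was picked for its small p. The fold is thus no further support, and the share of all tested features with counts in only 1 arm was not taken. The feature was otherwise seen in 1 oral swab and in 0 colon and 0 stool libraries. DESeq2 gave it an adjusted p of 0.00151, within a range of 0.00151 to 0.819 over the alternatives.

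Some other genera with low unadjusted p had counts in PET lungs alone, so they passed the filter of 3 libraries through that arm only. The share of all tested genera with counts in only 1 arm was not taken. Serratia, an enteric relative of water and plants and here the whole of Yersiniaceae, held 0.0154%, 0.306%, 0.0567% and 0.0706% in PET 1 to 4 and 0% in PET 5, PET 6 and the 6 controls. Duganella, a soil and water bacterium, was in the same 4 libraries at 0.0171%, 0.265%, 0.0479% and 0.0973%. Both were highest in PET 2, the library that also held the most Pseudomonas. Lactococcus, a lactic acid bacterium of plants and milk, held 0.0275%, 0.0939%, 0.0553% and 0.0656% in PET 2 to 5. Erwinia, a plant bacterium, held 0.0130%, 0.213% and 0.0611% in PET 1, PET 2 and PET 4. At the floor of 3 counts for the control arm, the pooled shares of PET lungs were at least 163-fold (Serratia), 162-fold (Duganella), 94.8-fold (Lactococcus) and 101.3-fold (Erwinia) higher. These folds also compare pooled counts and bound no single lung. The edgeR adjusted p was 0.209 for each of the 4 genera, and the exact permutation p ran from 0.00433 to 0.0130. These genera were picked for small unadjusted p, so neither these p-values nor the folds are further support for a difference. Pantoea, a further plant bacterium singled out after its values were seen, was in the same 3 PET libraries as Erwinia, with 74 counts, and in 0 controls. None of these 5 genera had a count in any colon or day 28 stool library, and in oral swabs Serratia, Duganella, Lactococcus and Pantoea were each in 1 control library. The counts are small, from 74 for Pantoea to 177 for Serratia over the PET arm.

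**Figure D4:**
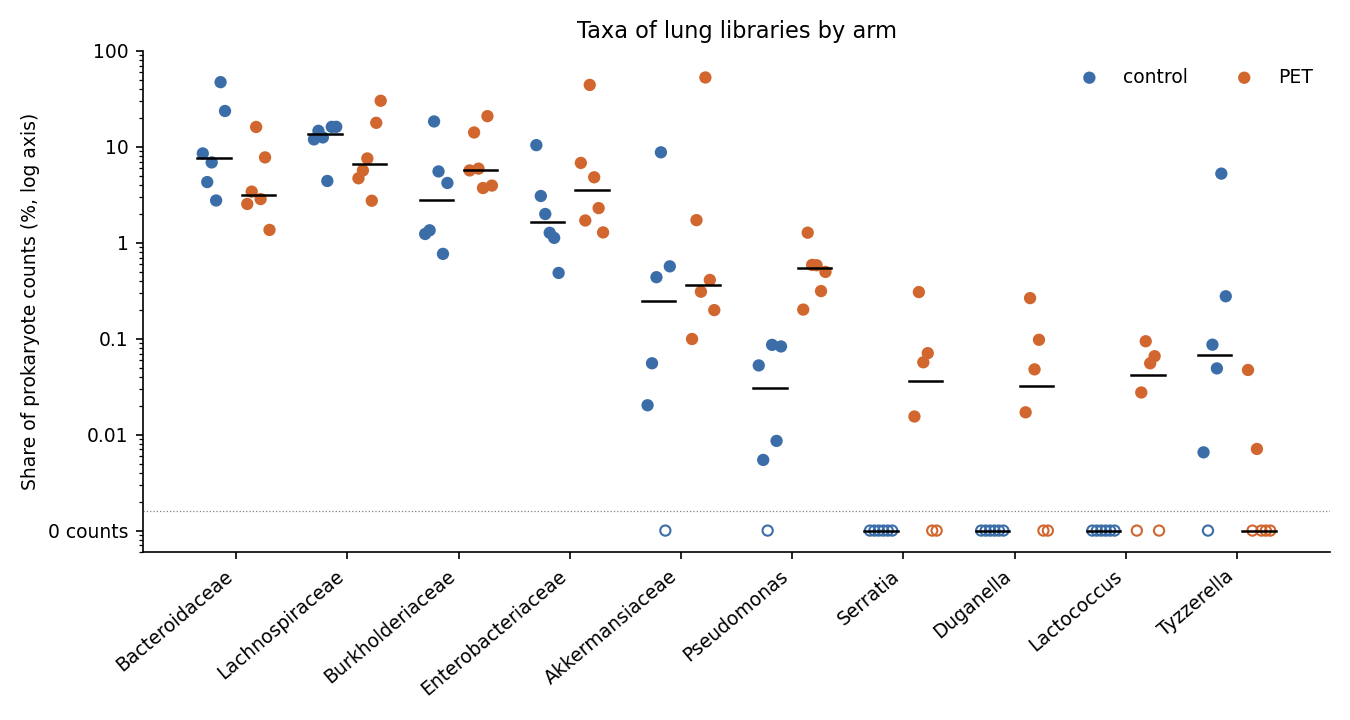
Share of prokaryote counts (%, log axis) per lung library for 5 families and 5 genera, with 6 control (blue) and 6 PET (orange) libraries; black lines are medians and open circles on the bottom line are libraries with 0 counts. Pseudomonas is the taxon plotted whose arms do not overlap, with 0% to 0.0861% in controls and 0.201% to 1.27% in PET lungs, while Serratia, Duganella and Lactococcus have 0 counts in every control.

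Akkermansiaceae, mucus degraders of the gut lining, had the smallest unadjusted p of all families. Controls held 0.0202%, 0.0554%, 0.437%, 8.74%, 0% and 0.567%. PET lungs held 0.0992%, 1.72%, 0.308%, 52.7%, 0.409% and 0.198%. Apart from control 4 and PET 4 the shares of both arms ran together, and the medians were 0.246% and 0.359%. The fitted log2 change was 4.70 (SE 1.496, edgeR adjusted p = 0.160), and the exact permutation p was 0.264. Without control 4 the change was 7.02 (adjusted p = 0.0150), and without PET 4 it was -1.04 (adjusted p = 0.840), so each of these libraries decided the call or the sign. The adjusted p ran from 0.0150 to 0.997 over all alternatives. At the genus level the same counts gave 2.54 (SE 1.70, adjusted p = 0.816). Nearly all of it was Akkermansia muciniphila feature A, with 52.7% of PET 4 (95% Wilson interval 52.2 to 53.1%), while colon tissue averaged 0.104% and stool 0.00584% of it.

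Enterobacteriaceae as a whole were led by Escherichia-Shigella and also by single libraries. Controls ran from 0.484% to 10.4% with a median of 1.63%, and PET lungs from 1.28% to 44.04% with a median of 3.55%. The highest libraries were PET 3 and control 1, and the ranges overlapped. The fitted log2 change was 1.41 (SE 1.17, edgeR adjusted p = 0.837), and without PET 3 it was -0.22. Synergistaceae, amino acid fermenting anaerobes, followed Akkermansiaceae, with 4.11% in PET 4, 0.543% in control 4 and at most 0.110% in the other 10 libraries (log2 change 4.92, SE 1.69, edgeR adjusted p = 0.169). Without PET 4 the change was -1.22.

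None of the orders passed the threshold. Bacteroidales, an order of glycan-degrading anaerobes, ran from 12.5% to 62.0% in controls with a median of 23.1%, and from 5.999% to 24.96% with a median of 12.8% in PET lungs. Control 5 and control 6, the later-numbered libraries, were the highest of the 12, and the arms overlapped. The log2 change was -2.54 (SE 0.99, edgeR adjusted p = 0.391, exact permutation p = 0.0628). Without those 2 controls it was -1.06 (edgeR adjusted p = 0.846). Bacteroidaceae, described above, had a log2 change of -2.63 (SE 1.22, edgeR adjusted p = 0.417), which was -0.18 without the same 2 controls. Oscillospirales, an order of butyrate and fibre fermenters, ran from 3.51% to 34.8% and from 5.31% to 20.1% (log2 change -2.31, SE 0.90, adjusted p = 0.391). Erysipelotrichales, gut Firmicutes, had a log2 change of -2.08 (SE 1.07, adjusted p = 0.639). Propionibacteriales, mainly skin bacteria, stood the other way at 1.92 (SE 0.98, adjusted p = 0.639), with medians of 0.0934% in control and 0.838% in PET lungs. Among genera, Faecalibacterium, a butyrate producer, held 1.08% to 10.04% in controls and 0.427% to 3.202% in PET lungs (log2 change -1.98, SE 1.06, adjusted p = 0.590). Bacteroides, UCG-002 and Subdoligranulum, gut fermenters, and Prevotella, a fermenter of mouth and gut, had log2 changes from -2.13 to -0.61. Blautia and Veillonella had changes of 0.10 and 0.41. Apart from Faecalibacterium, the edgeR adjusted p of these genera ran from 0.753 to 0.997. Single libraries turned the sign of some of them: Prevotella was at 0.58 without control 2, Subdoligranulum at 0.25 without control 1 and Veillonella at -0.75 without PET 1, and Blautia was below 0 in 7 of the 12 fits that left out 1 library.

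Several features of genera known from the gut had counts in control lungs and none in PET lungs. In this study's own gut libraries they were rare or not detected. They were picked for small unadjusted p or for detection in 1 arm, so that pattern follows from the choice. The share of all tested features with counts in only 1 arm was not taken. Bacteroides finegoldii feature A was in controls 2, 3, 5 and 6 at 0.0468%, 0.0577%, 0.654% and 1.14%. Roseburia feature B, a butyrate producer, was in controls 1, 3, 4 and 6 at 0.0625% to 1.40%. Bacteroides xylanisolvens feature A, a degrader of plant xylan, was in controls 1, 2 and 5 at 0.0140% to 0.347%. The pooled control shares were at least 116.6-fold, 74.1-fold and 134.9-fold higher than the floor of 3 counts over the PET arm. Such folds compare pooled counts and bound no single lung. Butyricimonas feature A was in 5 of 6 controls at 0.0160% to 0.156% and in 0 of 6 PET lungs. The Bacteroides finegoldii feature was in 0 of 12 colon, 0 of 24 stool and 0 of 12 oral libraries, and the Butyricimonas feature in 0, 0 and 2. The Roseburia feature was in 0 colon, 2 stool and 3 oral libraries, and the Bacteroides xylanisolvens feature in 1, 0 and 1. Each of these 4 features had an edgeR adjusted p of 0.137. Tyzzerella feature A, [Eubacterium] siraeum feature B and Odoribacter splanchnicus feature B were each in 5 of 6 controls and 1 of 6 PET lungs (edgeR adjusted p = 0.147, 0.179 and 0.908). In colon they were in 0, 4 and 0 of 12 libraries. The control arm held more counts, as given above, and the part of depth in such absences was not tested. At genus level Tyzzerella was in 5 of 6 controls, with 5.24% in control 5 and at most 0.277% in the others, and in 2 of 6 PET lungs at 0.00709% and 0.0472% (log2 change -6.59, SE 2.19, edgeR adjusted p = 0.209). With all libraries thinned to 10083 counts the genus was called, at -9.17 (edgeR adjusted p = 0.0107), and over all alternatives the adjusted p ran from 0.0107 to 0.999. Victivallales, an order of gut bacteria, was in controls 2, 4 and 6 at 0.00929% to 0.215% and in 0 PET lungs (edgeR adjusted p = 0.391). In pooled counts Victivallales was at least 60.1-fold higher in controls at the floor, with 95.2% of its control counts in control 2. Its family Victivallaceae had an adjusted p of 0.244.

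Families were also grouped in lists by usual habitat, although a family can live in more than 1 habitat. Of 18 gut anaerobe families tested, 0 passed the threshold and 14 had fitted changes below 0, with a median log2 change of -1.38 beside 0.33 over all families tested, of which 62 were above and 47 below 0. Under the TMMwsp scaling 47 of all families were above and 62 below 0. Under 4 other scalings or tools 14 to 16 of the 18 were below 0. Their summed share was 62.6% ± 17.8 in control and 46.5% ± 16.3 in PET lungs. The highest sums were 85.3% in the later-numbered control 5 and 76.3% in PET 4, where Akkermansiaceae alone took 52.7%. The list includes Prevotellaceae, which also live in the mouth and averaged 7.12% in control and 5.66% in PET lungs. Of 12 soil, water and reagent families tested, 0 passed and 11 had fitted changes above 0, with a median of 0.90, and 9 of the 12 under each of the same 4. Their summed share was 8.47% ± 10.9 and 14.4% ± 10.3, with the 3 highest values in PET 5, control 3 and PET 2. Of 11 mouth and airway families tested 0 passed, and the median was 0.73, which turned to -0.29 under the TMMwsp scaling. Their summed share was 11.5% ± 12.2 and 11.2% ± 11.7. The 4 skin families had a median of 0.08 (-0.32 under TMMwsp) and the 3 Enterobacterales families a median of 1.41, again with 0 past the threshold. Summed shares of every list overlapped between the arms.

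The fitted exposure effect in lung differed from that in colon for 10 families (8.62% of those tested, edgeR interaction test, adjusted p under 0.05). Lung and colon libraries were taken as independent, since no label ties those of 1 mouse. Of these 10, 7 had 0 counts in all 6 control colons: Selenomonadaceae, Neisseriaceae, Corynebacteriaceae, Fusobacteriaceae, Propionibacteriaceae, Leptotrichiaceae and Solirubrobacteraceae, most of them mouth, throat or skin bacteria. They were in 1 to 5 of the 6 PET colons, and all but Solirubrobacteraceae were in lungs of both arms. Selenomonadaceae, anaerobes of mouth and rumen, held 1.32% ± 1.47 in control and 1.03% ± 1.11 in PET lungs, and 0% and 0.109% ± 0.131 in control and PET colons. The difference of the log2 changes, lung minus colon, was -11.85 (adjusted p = 0.00105). Neisseriaceae, aerobes of mouth and throat, held 2.04% ± 2.52 and 1.23% ± 1.69 in lung, and 0% and 0.0967% ± 0.113 in colon (difference -11.23, adjusted p = 0.00105). Corynebacteriaceae of skin and nose held 0.797% ± 1.25 and 0.471% ± 0.489 in lung, and 0% and 0.0380% ± 0.0296 in colon (difference -10.21, adjusted p = 0.00780). In all 3 families the lung arms overlapped, and the PET colon level was below the mean lung level of either arm.

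Porphyromonadaceae and Fusobacteriaceae, anaerobes of dental plaque, had differences of -8.60 and -10.00 (edgeR adjusted p = 0.00780 for both). In lung their highest shares were 4.65% and 5.82% in control 4 and 4.02% and 5.53% in PET 1. In colon, Fusobacteriaceae were in 0 of 6 control and 3 of 6 PET libraries, and Porphyromonadaceae in 1 and 6 of 6. Control colons held 976911 prokaryote counts and PET colons 748726. The fitted size of a difference against an arm at 0 depends on the fit and is no bound. None of these 5 families passed the threshold in lung alone, and their fitted lung changes in the joint fit ran from -0.998 to 0.32. The same interaction was called for 0 families against oral swabs and 0 against stool of day 28 (0% each), with 19 and 15 families at an unadjusted p under 0.05 in edgeR, the only tool run for it.

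**Figure D5:**
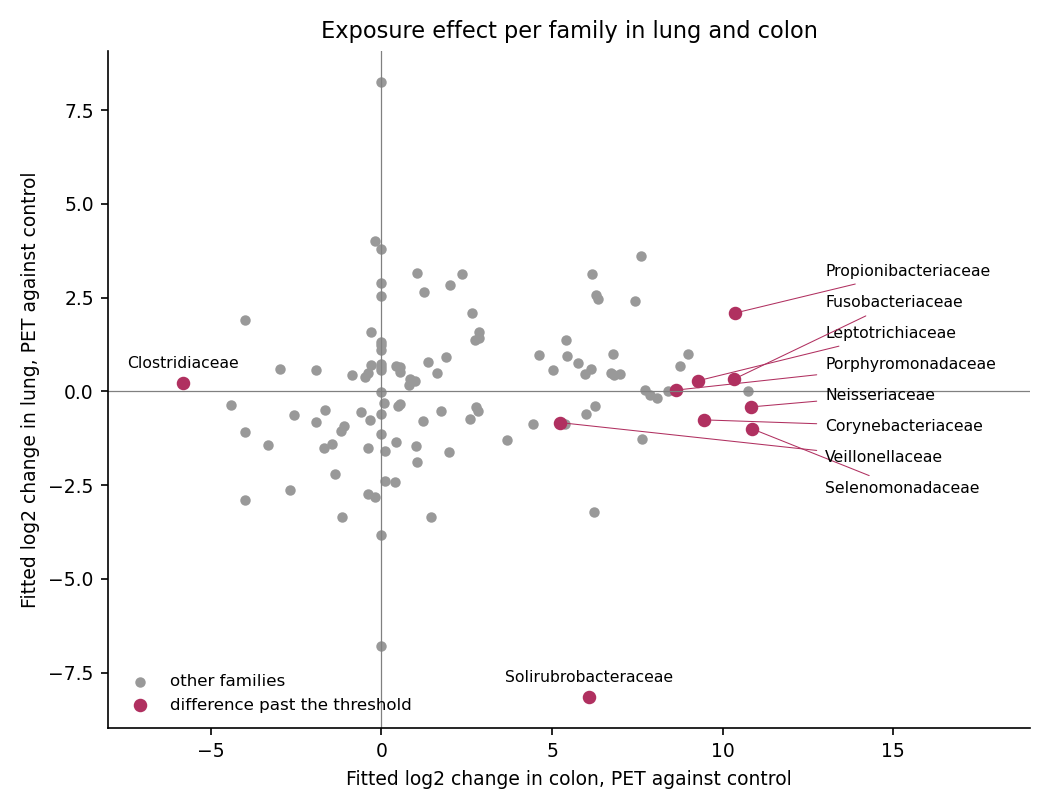
Fitted log2 change (PET against control) in lung on the vertical axis and in colon on the horizontal axis, 1 point per family from the joint fit of 24 libraries; families whose changes differed between the sites are red and named, and families with no counts at a site lie at 0 there. Most of the named families lie near 0 in lung and far to the right in colon, such as Selenomonadaceae at -0.998 and 10.86.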

How the data were processed

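Lung DNA was profiled by paired-end amplicon sequencing of 16S V3 to V4, per the labels. The deposited table, made by the authors, holds counts: whole numbers per feature and library, not normalized. Bowtie2, cutadapt and GRCm39, a mouse build, appear in the submitters' processing notes. Which denoiser, classifier and taxonomy database were used is not stated there. The deposited taxonomy gives each lineage a classifier confidence, a fraction, with a median of 0.993 and a lowest value of 0.700 in lung. Features without a lineage, of chloroplasts or mitochondria, or not assigned to Bacteria or Archaea were left out, which kept 7922 of 8574 features, 3607 of them in lung. The members, lists and tests were chosen with earlier results of these data known.

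Counts were summed by order, family and genus. PET and control were compared with edgeR 4.0.16 (quasi-likelihood F test, TMM, no covariates, Benjamini-Hochberg over all taxa of a level, threshold 0.05). Taxa needed 10 counts in all and detection in 3 libraries. Phyla, diversity, site sets and library measures had exact two-sided permutation tests; phyla used log2 shares with 0.5 added to counts. Site differences came from interactions in fits of 24 libraries. DESeq2 1.42.0 and limma 3.58.1 (centred log ratios) were alternatives, as were other scalings, filters, distances, thinning and left-out libraries. Shannon index (natural log, 100 draws) and richness were taken at 10083 counts. A share of 0 over an arm was read as up to 3 counts. Fold bounds use shares pooled over an arm, so they do not bound differences between single libraries. The fits were tested on simulated data. Named taxa are the 6 phyla, 10 orders, 12 families, 10 genera and 10 features of highest mean share; up to 10 higher and 10 lower taxa past the threshold, or else the 5 of smallest unadjusted p; up to 6 per level whose arms do not overlap; up to 6 features in at least 5 libraries of 1 arm and at most 1 of the other; list members past the threshold; and up to 5 families per interaction.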

Additional observations from a re-analysis of the deposited data

Results flagged for a closer look

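Some lung libraries stood apart from the other 5 of their arm, with a gap to the nearest value above Dixon's limit for 6 values. Chance alone sets apart about 1 in 20 groups, and 59 library measures and abundant taxa were examined in each of the 2 arms. There were 11 such libraries and measures. Control 4 stood apart in the share of counts in features of 1 lung library (49.9%), in the share of features seen in both gut and mouth (37.7%), and in Lachnospiraceae and Lachnospirales (4.40% for each). PET 1 stood apart in the number of features (998) and in richness (904). Control 2 stood apart in the share of features seen in the mouth and not the gut (9.08%). PET 4 was lowest in Subdoligranulum (0.116%) and in Subdoligranulum feature A (0.0553%). Bacteroides vulgatus feature A was at 0 in PET 3, and Faecalibacterium feature A was at 0 in control 5. Taxa were examined on a log2 scale with 0.5 added to counts.

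The fitted exposure effect differed between lung and colon in 10 families by the interaction test of edgeR. The differences of log2 changes, lung minus colon, were -11.85 for Selenomonadaceae, -11.23 for Neisseriaceae, -10.21 for Corynebacteriaceae, -8.60 for Porphyromonadaceae, -10.00 for Fusobacteriaceae, -6.07 for Veillonellaceae, -14.23 for Solirubrobacteraceae, -8.27 for Propionibacteriaceae, -8.99 for Leptotrichiaceae and 6.04 for Clostridiaceae. The adjusted p ran from 0.00105 to 0.0462. Of the families not described above, Veillonellaceae, mouth and gut anaerobes, held 3.82% ± 4.36 in control and 3.49% ± 2.62 in PET lungs, and 0.0281% ± 0.0483 and 1.41% ± 2.77 in colon (SD, n = 6). Clostridiaceae, spore-forming gut bacteria, held 0.832% ± 2.01 in control colons and 0.0121% ± 0.0119 in PET colons, the former with 4.94% in 1 library. Solirubrobacteraceae, soil bacteria, were in 2 of 6 control lungs, 0 of 6 PET lungs and 1 of 6 PET colons.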

How the results depend on the processing

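The calls between PET and control lungs depended on the tool and on single libraries. DESeq2 called 2 orders (Victivallales lower, Pseudomonadales higher in PET), 2 families (Pseudomonadaceae and Yersiniaceae), 4 genera (Pseudomonas, Duganella, Serratia and Lactococcus) and 3 features (Enterobacteriaceae feature A, Pseudomonas feature A and Bacteroides xylanisolvens feature A). Its log2 changes for Victivallales and the Bacteroides feature were -23.3 and -23.5. Both had 0 counts in PET lungs and counts in some controls only, so the fitted size is no bound. Thinning called 2 families (Akkermansiaceae and Synergistaceae) and 1 genus (Tyzzerella), and no filter called 1 genus (Coprobacillus). Leaving out 1 library at a time gave 0 to 1 families (1 without control 4, Akkermansiaceae) and 0 to 1 features (1 without PET 4, UCG-002 feature B). Leaving out PET 3 and PET 4 together, an alternative chosen after seeing the data like that without control 4 and PET 1, called 1 feature, the same UCG-002 feature B. All other settings called 0 at each level. Without a filter, edgeR gave 2351 of 3607 features an unadjusted p under 0.05 and called 0. With 1 library left out, the difference of PET minus control ran from -157 to 16.1 for richness (the highest without control 4) and from 1.61 to 2.96 percentage points for features shared with the gut only. It ran from -0.897 to 0.653 for features shared with the mouth only (the highest without control 2), from -4.51 to 7.997 for features of both (below 0 without control 4, PET 3, PET 4 or PET 5) and from -10.1 to 2.12 for features of no other site (the highest without control 4). Features shared with the gut only gave -3.34 points where 3 libraries were needed at the other site, and those of the mouth only 0.360 where 10 counts were needed. Interactions with colon numbered 14 with library totals and 9 with the stricter filter, against 10. Over 69 named taxa and all alternatives, 1500 of 1606 values kept sign and side of the threshold, 91 values of 28 taxa changed sign while never called, and 15 were called with the same sign. No paired analysis was possible because the labels give the lung libraries no shared replicate numbers. Depth limits what was detectable: 1 count in PET 6, the shallowest library, is worth far more of its share than in control 1, and counts of 0 in shallow libraries do not show absence.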
